A study of Mus musculus with 9 samples.

Results

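RNA from the lymph nodes of Tyr-NrasQ61K mice labelled as MHC class II knockout (MHCII-KO) was compared with RNA from the nodes of Tyr-NrasQ61K mice with intact MHC class II. The comparison used 6 of the 9 libraries of the series, 3 per group, which were chosen by their labels and not by any measured value. By the labels' protocols, the Tyr-NrasQ61K transgene expresses activated NRAS from the tyrosinase promoter, which is active in pigment cells, and both groups are labelled as carrying NRAS61K on an FVB/NJ background described as a cross. The MHCII-KO libraries are labelled Cre-positive with MHCII status KO, and the intact libraries are labelled Cre-negative with wild-type MHCII. The remaining 3 libraries came from albino FVB/NJ littermates with wild-type NRAS and wild-type MHCII (WT), and they were used to estimate the spread and as a reference level. The series description calls NRAS61K Cre inducible, which does not match Cre-negative libraries that are labelled as carrying it, and the relation of Cre to the transgene could not be settled. The sources used here do not give the Cre driver, the class II gene or exon that was deleted, the cells in which it was deleted or the age of the mice. The labels call the source nevus melanocytes, whereas the study's text describes RNA from lymph nodes.
MHC class II molecules are pairs of an alpha and a beta chain that present peptides from endosomes to CD4+ T cells. In a lymph node they are known to be carried mainly by B cells, dendritic cells and macrophages, and they can be induced on other cells by interferon gamma. The chains assemble with the invariant chain, encoded by Cd74, and take up peptide with the help of the DM proteins, which the DO proteins restrain. Transcription of these genes depends largely on the coactivator CIITA, which is recruited to a shared promoter module that includes a Y box, an inverted CCAAT element bound by NF-Y.
The promoters of 2 chain genes are shown because they carry an element through which class II genes are transcribed. The knockout label names class II but not the gene that was deleted. The sequences are the 120 bases before the RefSeq start site in build GRCm38.p6, on the strand of the gene, with the letters CTGATTGG of the Y box in capitals. The H2-Aa sequence lies at chr17:34287824-34287943 on the minus strand and the H2-Eb1 sequence at chr17:34305747-34305866 on the plus strand.
H2-Aa: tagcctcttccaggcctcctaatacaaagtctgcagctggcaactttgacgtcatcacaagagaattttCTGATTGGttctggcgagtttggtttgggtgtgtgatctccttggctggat
H2-Eb1: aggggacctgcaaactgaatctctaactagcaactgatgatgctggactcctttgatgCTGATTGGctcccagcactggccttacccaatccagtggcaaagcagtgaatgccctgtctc
The letters CTGATTGG, or CCAATCAG on the other strand, occurred in the 250 bases before the start in 3.83% of the 32851 promoters of the table. They occurred in 3 of the 3 chain genes with an entry, H2-Aa, H2-Eb1 and H2-Eb2, and in 1 of 16 loading and transcription genes with an entry, H2-Oa.

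Before the comparisons, the tissue and the libraries were checked. Lymphocyte genes were expressed in all 6 libraries, with the B cell gene Ms4a1 at 24.6 to 92.3 FPKM (fragments scaled to transcript length and library size) and the T cell gene Cd3d at 11.9 to 21.8. The stromal chemokine gene Ccl19 was at 29.0 to 39.3 FPKM. The epidermal keratin genes Krt5 and Krt14 and the milk protein gene Csn2 were at most 0.396 FPKM in these 6 libraries, while Krt18, a keratin gene of simple epithelia, reached 1.255 in intact replicate 1 and 1.362 in MHCII-KO replicate 1. Skeletal muscle genes varied among the libraries. Myh4 was at 3.81 and 2.04 FPKM and Ckm at 2.18 and 0.683 in MHCII-KO replicates 1 and 2, against at most 0.062 for both genes in the other 4 libraries. The fast muscle gene Tnni2 was detected in every library, at 2.29, 2.42 and 2.03 FPKM in intact nodes and at 6.13, 2.84 and 2.39 in MHCII-KO nodes. Replicate 2 of each NrasQ61K group stood apart on the first principal component, which held 59.1% of the variance over protein-coding genes, at 62 and 47.8 against -50 to 11.5 for the other 7 libraries. These 2 libraries also had the lowest depth that could be recovered, 0.758 and 0.871 of WT replicate 1, against 1.34 to 1.69 for the others of the 6, apart from intact replicate 3, for which no depth was recovered. The numbers in the sample identifiers place intact replicate 1 and MHCII-KO replicates 1 and 2 in one run and the other 3 libraries in another, and the labels do not say what a run stands for.

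Class II RNA in the whole node did not separate the MHCII-KO libraries from the intact ones. H2-Aa, which encodes the alpha chain of I-A, was at 587, 276 and 802 FPKM in intact nodes and at 634, 362 and 499 in MHCII-KO nodes. The 3 MHCII-KO values lay within the range of the intact values, of which intact replicate 2 was the lowest. The WT libraries were at 1091, 667 and 932 FPKM. The log2 fold change of H2-Aa on the scale of FPKM + 1, MHCII-KO minus intact, was -0.06 (standard error 0.45, p = 0.897 from limma, exact permutation p = 1). Its 95% interval ran from 0.483 to 1.90 as a fold. The estimate was 0.04 on the log2 scale with equal sums of FPKM and -0.50 without intact replicate 2.
H2-Ab1, the beta chain gene of I-A, was at 149, 276 and 207 FPKM in the intact nodes and at 271, 108 and 165 in the MHCII-KO nodes, with 183, 101 and 170 in WT. The groups overlapped across nearly the whole range. Its log2 fold change was -0.27 with a 95% interval from 0.452 to 1.52 as a fold (exact permutation p = 0.6), and the change was 0.26 on the log2 scale without replicate 2 of both groups. H2-Eb1, which encodes the beta chain of I-E, was at 381, 355 and 578 FPKM in intact nodes and at 444, 360 and 387 in MHCII-KO nodes. The intact group held both the lowest and the highest value, and the log2 fold change was -0.11. H2-Eb2, the fourth chain gene measured, was at 12.6, 9.84 and 19.3 FPKM in intact nodes and at 12.5, 7.55 and 11.6 in MHCII-KO nodes. The WT libraries were at 23.9, 18.3 and 21.3, above every NrasQ61K library but intact replicate 3. The log2 fold change between the NrasQ61K groups was -0.35 with overlapping libraries.

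**Figure D1:**
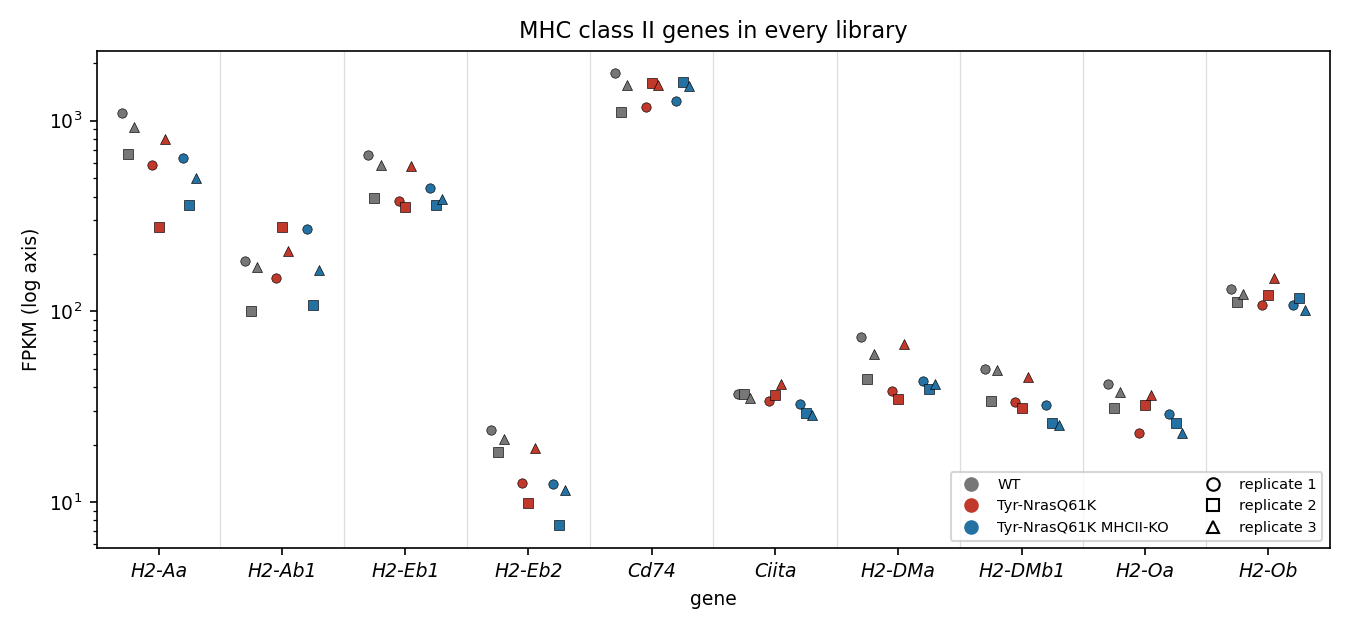
FPKM (log axis) of 4 MHC class II chain genes and 6 genes of class II loading and transcription in each library; grey, red and blue are WT, Tyr-NrasQ61K and Tyr-NrasQ61K MHCII-KO, and circles, squares and triangles are replicates 1, 2 and 3. The red and blue points overlap for every gene but Ciita, for which the blue points at 28.7 to 32.6 lie below the red points at 33.7 to 41.4.

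Together, 0 of the 4 chain genes and 0 of the 18 loading and transcription genes passed the test, as did 0% of the 11902 protein-coding genes tested. The 4 chain genes had a median log2 fold change of -0.19 and the 18 others one of -0.14, where the median over all genes tested was -0.07. The summed FPKM of the 4 chain genes was 1130, 917 and 1610 in the intact and 1360, 838 and 1060 in the MHCII-KO libraries (exact permutation p = 0.6). In RNA from whole nodes, fewer cells that express a gene and less RNA per cell cannot be told apart. The ratio of H2-Ab1 to H2-Aa, which does not depend on the scaling of a library, was 0.254, 1 and 0.259 in the intact, 0.427, 0.299 and 0.33 in the MHCII-KO and 0.151 to 0.182 in the WT libraries. Every NrasQ61K library had a higher ratio than every WT library, and the 2 NrasQ61K groups overlapped through intact replicate 2.
Around the chain genes, from 34257689 to 34341412 on chromosome 17 of mm10, 137 genes were tested within 2 megabases on either side. Of these, 2 had libraries that did not overlap, both lower in MHCII-KO, a share of 1.46% beside 3.42% of all genes tested (a count of libraries, with no test). They were Btnl2, a butyrophilin-like gene of the class II region, and 2310061I04Rik, and both were chosen after their values were seen.

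The genes that load and transcribe class II did not pass the test either. Cd74, the invariant chain gene, was at 1180, 1580 and 1530 FPKM in intact nodes and at 1280, 1600 and 1510 in MHCII-KO nodes. The groups covered the same range, with a log2 fold change of 0.04 and a 95% interval from 0.554 to 1.90 as a fold. Ciita, the coactivator gene, was at 33.7, 36.4 and 41.4 FPKM in intact nodes and at 32.6, 29.1 and 28.7 in MHCII-KO nodes. It was the 1 gene of the 22 in both lists whose libraries did not overlap, a share near the 3.42% of all genes, and its log2 fold change was -0.29 (standard error 0.21, p = 0.2 from limma, exact permutation p = 0.1, the smallest that 3 against 3 libraries allow). The difference was -0.42 on the log2 scale in one identifier run and -0.13 in the other. A second entry with the symbol Ciita, which has no gene type in the annotation used, was kept apart and was not counted.
H2-DMa and H2-DMb1, which encode the peptide exchange factor DM, had log2 fold changes of -0.11 and -0.38, and H2-DMb2, a second DM beta chain gene, had one of -0.26. H2-Oa and H2-Ob, the chains of the DM inhibitor DO, had log2 fold changes of -0.21 and -0.21. All 5 had overlapping libraries. Among the endosomal proteases that degrade the invariant chain and antigens, Ctss was at -0.04, Ctsl at 0.02 and Lgmn at 0.21 on the log2 scale, with the sign of Ctss turned by median-ratio scaling and by equal sums of FPKM. Ifi30, a thiol reductase of the endosome that the annotation does not class as protein-coding, was at 67.0, 40.2 and 69.6 FPKM in intact nodes and at 59.0, 40.7 and 52.9 in MHCII-KO nodes. March1, a ubiquitin ligase that removes class II from the cell surface, had a log2 fold change of -0.07, above 0 under all 3 other scalings. Of the factors that bind the class II promoters, Rfx5, Rfxank and Rfxap were at -0.24, -0.11 and 0.07, the NF-Y subunit genes Nfya, Nfyb and Nfyc at 0.02, -0.17 and -0.31, and Creb1 at -0.49, on the same log2 scale.

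**Figure D2:**
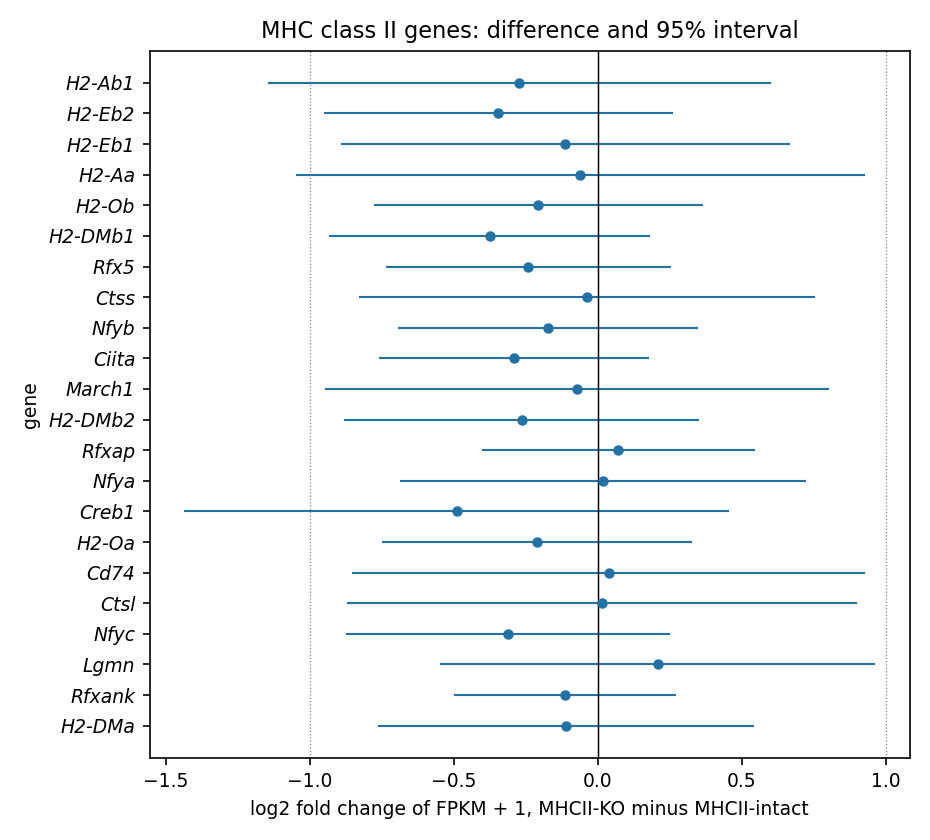
Log2 fold change of FPKM + 1, MHCII-KO minus intact, for the 22 class II genes tested; points are the estimates and bars the 95% intervals from limma, and the dotted lines mark a change of 2-fold. Every bar crosses 0, and 19 of the 22 lie within the dotted lines.

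Over the transcriptome, 0 of 11902 protein-coding genes differed between MHCII-KO and intact nodes at an adjusted p of at most 0.05 (limma with Benjamini-Hochberg), and each of them had an adjusted p of 1. Of the unadjusted p-values, 125 were under 0.05 (1.05%), for 17 genes higher (0.143%) and 108 genes lower (0.907%) in MHCII-KO nodes, where 5% of the genes would be 595. All 3 MHCII-KO libraries lay above all 3 intact libraries for 66 genes (0.555%) and below them for 341 genes (2.87%). A log2 fold change below 0 was found for 67.8% of the genes. The size of this lean depended on the scaling and on single libraries. Of the genes with an unadjusted p under 0.05, 86.4% were lower with the FPKM as deposited and 70.6% to 73.4% after quantile normalization, median-ratio scaling or equal sums of FPKM, which brought the median log2 fold change from -0.07 to between 0.003 and 0.017. Without intact replicate 3 the share was 53.6% (45 higher, 52 lower) and the median 0.055, and with weights for the libraries the share was 49.4%.
The precision was that of 3 libraries per group. The 95% interval of a gene extended by a median of 0.57 on the log2 scale to either side, or 1.48-fold. For 10365 genes (87.1%) the whole interval lay within a 2-fold change. These are folds of FPKM + 1, which understate the changes in FPKM of low genes. Of the 31 genes with a log2 fold change beyond 1 in either direction, 18 had predicted gene names and 3 had libraries that did not overlap.
A further fit used weights that allow each library its own precision. Intact replicates 1 to 3 had weights of 4.01, 0.181 and 0.346, and MHCII-KO replicates 1 to 3 of 1.09, 0.403 and 5.28. The weighted contrast therefore rested largely on intact replicate 1 and MHCII-KO replicate 3, which lie in different identifier runs. In this weighted fit 6 genes passed. Of these, 5 carried predicted or clone names, and the other was Gulp1 (adjusted p = 0.00374 from limma). Without intact replicate 2, 1 predicted gene passed, and without replicate 2 of both groups, 0 passed, with 21 higher and 240 lower genes at an unadjusted p under 0.05.

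**Figure D3:**
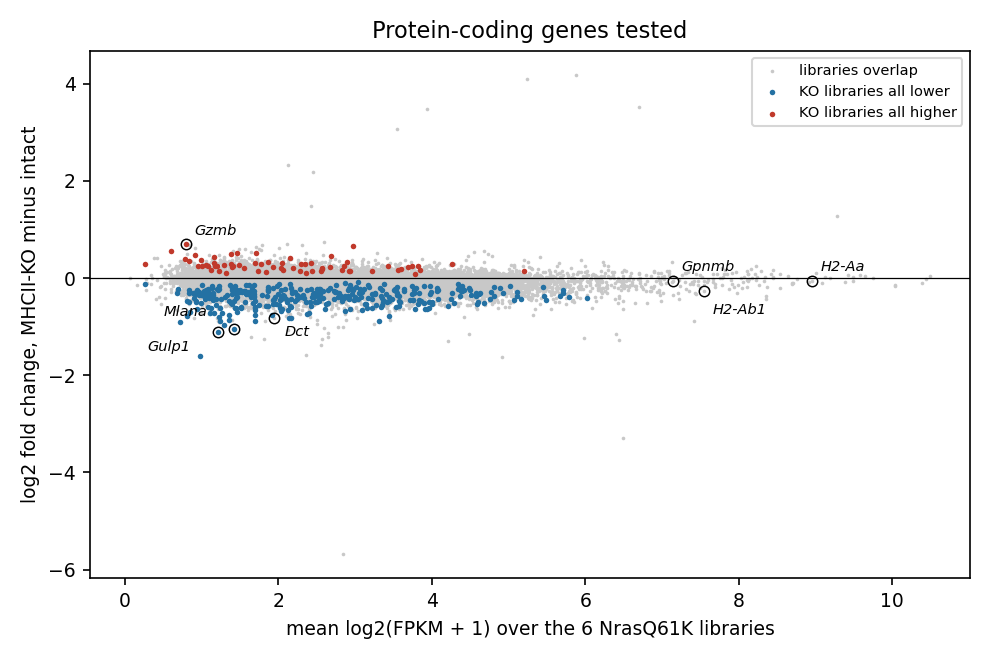
Log2 fold change, MHCII-KO minus intact, against the mean log2(FPKM + 1) of the 6 NrasQ61K libraries for the 11902 protein-coding genes tested. Grey points have overlapping libraries, blue points (341) have all MHCII-KO libraries below all intact libraries and red points (66) have them above; 0 of the genes passed the test.

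The genes with the smallest unadjusted p and no overlap between the libraries are described as the leading differences, and they did not pass the test. A gene whose MHCII-KO and intact libraries do not overlap always has an exact permutation p of 0.1. That p was therefore fixed by the choice of these genes and adds no support. Of 15 lower genes, Mlana, which encodes a melanosome protein recognised by T cells in melanoma, was at 3.29, 2.65 and 2.63 FPKM in intact nodes and at 0.508, 0.508 and 1.86 in MHCII-KO nodes. MHCII-KO replicate 3 was the closest to the intact group, and the WT libraries were at 0.452, 0 and 0.143. Its log2 fold change was -1.04 (standard error 0.26, p = 0.00166 from limma, exact permutation p = 0.1), with -1.51 in the identifier run of MHCII-KO replicates 1 and 2 and -0.35 in the other run. Outside the intact group Mlana reached 1 FPKM only in MHCII-KO replicate 3. It met the filter through the group in which it was high, so this p is no support for a difference. Gulp1, an adaptor of the engulfment of apoptotic cells, was at 3.57, 1.05 and 3.22 FPKM in intact nodes and at 0.603, 0.35 and 0.793 in MHCII-KO nodes. It had the largest log2 fold change of the 15, -1.12, and intact replicate 2 was the closest to the MHCII-KO group.
Nav3, a protein of the navigator family that binds microtubules, was at 1.08, 1.23 and 1.61 FPKM in intact nodes and at 0.476, 0.325 and 0.467 in MHCII-KO nodes, which was close to the WT libraries at 0.507, 0.555 and 0.707. Its log2 fold change was -0.69, with the smallest unadjusted p of the 30 leading genes (p = 0.00147 from limma, exact permutation p = 0.1). Nav3 was near the floor and reached 1 FPKM only in the 3 intact libraries. It met the filter through the group in which it was high, so this p is no support for a difference. Bend6, a transcriptional repressor with a BEN domain, was at 2.08, 3.76 and 4.74 FPKM in intact nodes and at 1.52, 1.39 and 1.23 in MHCII-KO nodes. The MHCII-KO values of Bend6 were near those of WT, 1.20, 1.39 and 1.02.
Of the others of the 15, Ccnb1 acts in cell division and Fancd2 in DNA repair. Ccnb1, the mitotic cyclin B1 gene, was at 2.89, 4.49 and 4.45 FPKM in intact nodes and at 2.34, 1.68 and 1.71 in MHCII-KO nodes, a log2 fold change of -0.75. Fancd2, a gene of the Fanconi anemia repair pathway, was at 1.32, 0.979 and 2.005 FPKM and at 0.525, 0.483 and 0.604, and the WT libraries were level with the intact ones at 1.93, 1.40 and 2.08. Mybl1, a MYB family transcription factor, had a log2 fold change of -0.96, with intact replicate 2 the highest library at 4.64 FPKM. Erbb2, the HER2 receptor gene, was at 1.62, 1.14 and 2.16 FPKM in intact nodes and at 0.66, 0.824 and 0.714 in MHCII-KO nodes, with a log2 fold change of -0.59. Outside the intact group Erbb2 reached 1 FPKM only in WT replicates 1 and 3, too few to meet the filter without the intact libraries.
Among the remaining lower genes the log2 fold changes were -0.73 for Ift122, a gene of intraflagellar transport in cilia, -0.82 for Aste1, -0.55 for Nradd, -0.80 for Mst1, which encodes macrophage-stimulating protein, -0.70 for Tsga14 and -0.58 for Hemk1. Their unadjusted p ranged from 0.00356 to 0.0159 (limma). Outside the intact group Ift122 reached 1 FPKM only in WT replicates 1 and 3, and Mst1 only in WT replicate 2. Both met the filter through the intact group, in which they were high, so their p are no support for a difference. Of the 15 lower genes, 4 lie on chromosome 9, namely Aste1 at 105395392, Hemk1 at 107327084, Mst1 at 108080436 and Nradd at 110621135 (start in mm10), and 4 lie on chromosome 1, among them Mybl1, Bend6 and Gulp1. On chromosome 9, 31 of 658 genes tested were lower without overlap (4.71%), and on chromosome 1, 16 of 699 were (2.29%), beside 2.87% of all genes.
Of the 15 higher genes, 5 had an unadjusted p under 0.05. Gzmb, the granzyme B gene of cytotoxic lymphocytes, was at 0.247, 0.225 and 0.651 FPKM in intact nodes and at 1.92, 0.974 and 0.906 in MHCII-KO nodes. The WT libraries, at 1.69, 0.717 and 1.70, were nearer to the MHCII-KO group, and the log2 fold change was 0.71 (standard error 0.24, p = 0.0133 from limma, exact permutation p = 0.1). Gzmb was near the floor and reached 1 FPKM only in MHCII-KO replicate 1 and WT replicates 1 and 3. Cdkn2a, the locus of the senescence proteins p16INK4A and p19ARF, was at 1.34, 1.61 and 0.977 FPKM in intact nodes, at 2.37, 2.57 and 1.97 in MHCII-KO nodes and at 2.39, 1.03 and 2.20 in WT nodes. The MHCII-KO values were again within the range that WT spans or close to it, and the log2 fold change was 0.52 (p = 0.0417 from limma, exact permutation p = 0.1).
Pfkm, the muscle isoform gene of phosphofructokinase, was at 1.21, 0.95 and 1.48 FPKM in intact nodes and at 2.38, 2.06 and 1.85 in MHCII-KO nodes, a log2 fold change of 0.49. The skeletal muscle genes Myh4 and Ckm were higher in MHCII-KO replicates 1 and 2 than in the other libraries, as given above, and their part in this difference was not tested. Stc2, the secreted glycoprotein stanniocalcin 2, had a log2 fold change of 0.44 and Odz4, a teneurin of neural development, one of 0.45. Isg15, a ubiquitin-like protein induced by interferon, was at 5.03, 5.10 and 5.51 FPKM in intact nodes and at 9.17, 7.83 and 9.70 in MHCII-KO nodes, a log2 fold change of 0.67 (p = 0.0931 from limma, exact permutation p = 0.1).
The log2 fold changes of the other higher genes ran from 0.30 for Dph2 to 0.48 for Apoc2, an activator of lipoprotein lipase. Among those between them were Zfp462, the terminal transferase gene Dntt, the kinase gene Mark4, Scrn2, Krt222 and the caveolar gene Ptrf, with unadjusted p from 0.0755 to 0.182 (limma).

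**Figure D4:**
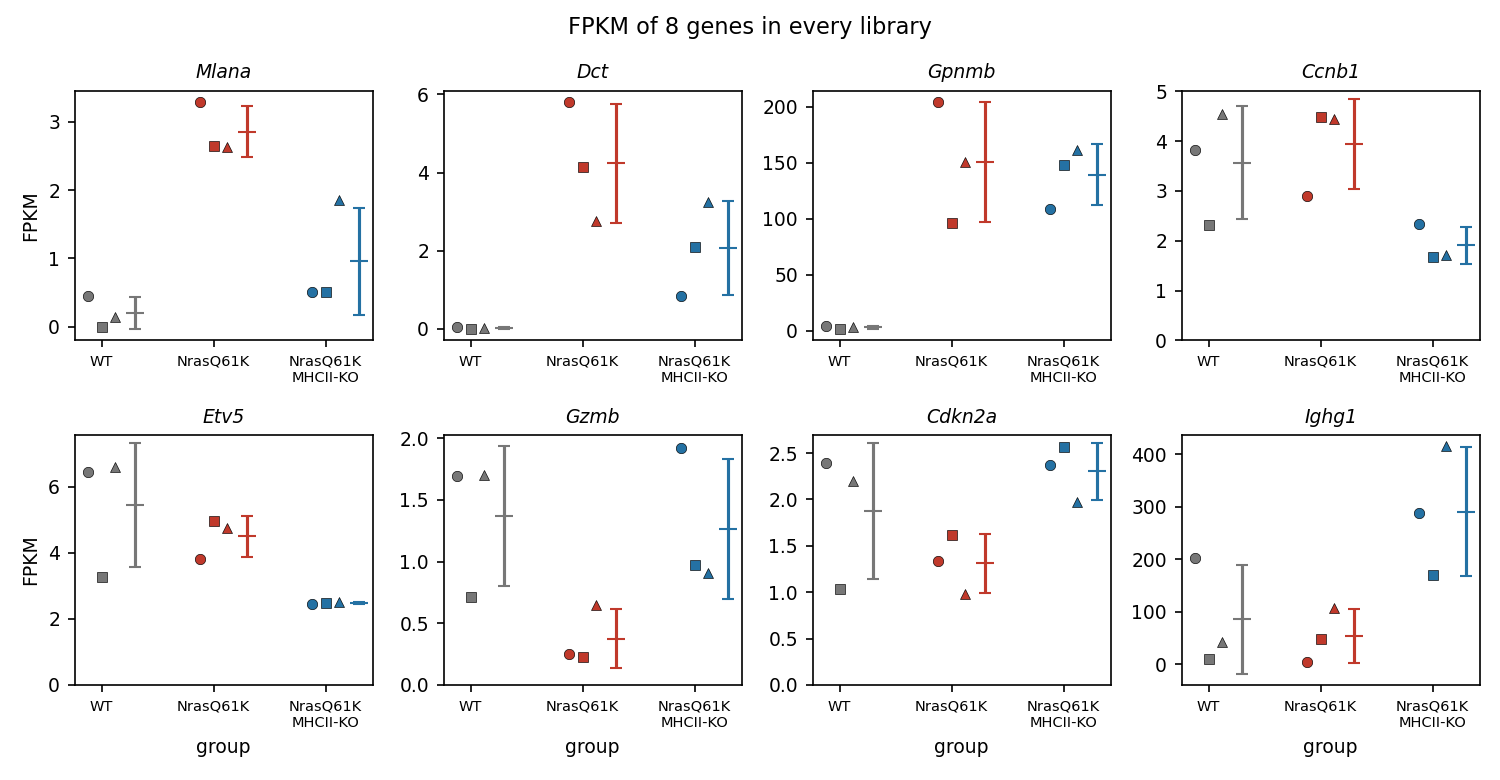
FPKM of 8 genes in each library; circles, squares and triangles are replicates 1, 2 and 3, with a horizontal bar at each group mean and a vertical one for the SD (n = 3) (grey WT, red Tyr-NrasQ61K, blue Tyr-NrasQ61K MHCII-KO). The red and blue points do not overlap for Mlana, Ccnb1, Etv5, Gzmb, Cdkn2a and Ighg1, and they overlap for Dct and Gpnmb; 0 of the 8 genes passed the test.

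Melanocyte genes address whether pigment cells, in which the transgene is active, were equally represented in the nodes of both groups. In the promoters of pigment genes the factor MITF binds the M box, which holds the letters CATGTG. The sequences before the start sites of Dct and Tyr are shown because both are pigment enzyme genes and the tyrosinase promoter drives the transgene. They are 160 bases in build GRCm38.p6 on the strand of the gene, with CATGTG in capitals, at chr14:118052247-118052406 and chr7:87493513-87493672, both on the minus strand.
Dct: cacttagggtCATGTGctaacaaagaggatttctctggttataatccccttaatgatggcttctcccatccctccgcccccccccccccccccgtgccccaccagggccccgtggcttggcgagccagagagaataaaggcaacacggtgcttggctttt
Tyr: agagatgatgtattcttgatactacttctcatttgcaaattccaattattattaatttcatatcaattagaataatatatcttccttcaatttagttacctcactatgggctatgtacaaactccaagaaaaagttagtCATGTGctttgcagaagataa
CATGTG, or CACATG on the other strand, occurred in the 250 bases before the start in 8 of 17 melanocyte genes with an entry and in 12.3% of all promoters of the table.
Dct, a pigment enzyme gene of the melanocyte lineage, was at 5.81, 4.16 and 2.77 FPKM in intact nodes and at 0.847, 2.10 and 3.25 in MHCII-KO nodes, and at most 0.0508 in WT. MHCII-KO replicate 3 lay above intact replicate 3, so the groups overlapped. The log2 fold change was -0.81 (standard error 0.30, p = 0.0176 from limma, exact permutation p = 0.2), with -1.46 in the identifier run of MHCII-KO replicates 1 and 2 and -0.07 in the other run. Tyr, the tyrosinase gene, was at 1.41, 1.65 and 1.56 FPKM in intact nodes and at 0.97, 1.26 and 1.27 in MHCII-KO nodes without overlap, while the WT libraries ranged from 0.595 to 2.04. The values of both NrasQ61K groups lay within this WT range, so Tyr did not set NrasQ61K nodes apart from WT. The log2 fold change of Tyr was -0.23.
Gpnmb, a glycoprotein of melanosomes and of phagocyte lysosomes, was at 204, 96.4 and 151 FPKM in intact nodes and at 109, 148 and 161 in MHCII-KO nodes. The groups overlapped, both far above WT at 1.57 to 4.23, and the log2 fold change was -0.06, above 0 under all 3 other scalings. Nras was at 10.7, 5.55 and 14.4 FPKM in intact nodes, at 10.8, 7.48 and 11.1 in MHCII-KO nodes and at 10.3 to 14.7 in WT nodes, so neither NrasQ61K group lay above WT. The files do not say whether reads of the transgene were counted toward Nras.
Of 26 melanocyte genes in the table, 16 passed the filter and 0 passed the test. A log2 fold change below 0 was found for 14 of the 16, beside 67.8% of all genes, with a median of -0.10, beside -0.07. Of these 16, 2 genes, Mlana and Dct, were lower at an unadjusted p under 0.05, beside 0.907% of all genes, and 2, Mlana and Tyr, had libraries that were lower without overlap, beside 2.87%. Mlana and Dct would not have met the filter without the intact libraries, in which they were high. Their p are therefore no support for a difference.

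Most cell cycle genes had a lower mean in MHCII-KO nodes, and 0 of them passed the test. Of 30 proliferation genes, all of them tested, 29 had a log2 fold change below 0, beside 67.8% of all genes. Their median was -0.29 beside -0.07 over all genes. The libraries of 4 were lower without overlap, Ccnb1, Ccna2 and, chosen after their values were seen, Cenpe and Top2a, beside 2.87% of all genes. Ccna2, the cyclin A2 gene, was at 3.59, 3.91 and 4.09 FPKM in intact nodes and at 1.96, 2.23 and 2.88 in MHCII-KO nodes. Foxm1, a transcription factor of mitotic genes, was at 2.19, 3.96 and 3.20 FPKM and at 1.49, 2.42 and 1.90, with overlap through MHCII-KO replicate 2. Mki67, which encodes the Ki67 protein of cycling cells, was at 6.14, 5.78 and 4.93 FPKM in intact nodes and at 4.74, 3.07 and 5.48 in MHCII-KO nodes, a log2 fold change of -0.31 with overlapping libraries.
The summed FPKM of the 30 genes was 132, 158 and 158 in the intact and 120, 109 and 127 in the MHCII-KO libraries. Each MHCII-KO sum lay below each intact sum (exact permutation p = 0.1), and the WT libraries were at 246, 126 and 233, with 2 of the 3 MHCII-KO sums below all of them. The median stayed below 0 under the 3 other scalings, at -0.235 to -0.233, was -0.18 without replicate 2 of both groups and was -0.0626 with weights for the libraries. Over all genes the median was 0.003 to 0.017 under those scalings, -0.112 without replicate 2 of both groups and -0.005 with the weights.

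Among T cell genes, which include those of the CD4+ cells to which class II presents, 0 passed the test. Cd4, the class II coreceptor gene, was at 106, 56.0 and 176 FPKM in intact nodes, at 91.4, 63.8 and 105 in MHCII-KO nodes and at 30.4 to 59.8 in WT nodes. The log2 fold change was -0.25 with overlapping libraries and turned to 0.142 without intact replicate 3, which had the highest value. Cd3e, a chain of the T cell receptor complex, was at 11.2, 13.3 and 21.7 FPKM and at 15.4, 10.8 and 20.4, and Cd8a, the class I coreceptor gene, had a log2 fold change of 0.23. Of 26 genes of the receptor complex and coreceptors, 14 were above 0 and 12 below, with a median of 0.00, and 0 passed.
Of 22 T cell activation and checkpoint genes, 10 were above 0 and 12 below (median -0.03). The inhibitory receptor gene Ctla4 was at 2.50, 1.80 and 5.96 FPKM in intact nodes and at 2.74, 1.57 and 1.35 in MHCII-KO nodes, and its log2 fold change of -0.53 was -0.144 without intact replicate 3. Foxp3, the factor that defines regulatory T cells, was at 1.15, 1.79 and 2.01 FPKM in intact nodes and at 1.57, 1.56 and 1.42 in MHCII-KO nodes, a log2 fold change of -0.06 with the MHCII-KO values inside the intact range. Ikzf4, a transcription factor of the same cells, was at 1.76, 1.19 and 1.15 FPKM and at 0.724, 1.11 and 0.723, and it was the 1 gene of 11 in the regulatory T cell list whose libraries did not overlap, beside 3.42% of all genes. Outside the intact group Ikzf4 reached 1 FPKM only in MHCII-KO replicate 2. It met the filter through the group in which it was high, so its lack of overlap is no support for a difference. The list had a median of -0.06, and 0 of its genes passed.
Of 19 genes of natural killer cells and cytotoxic granules, 13 were above 0 with a median of 0.04, where 67.8% of all genes were below 0. Gzmb was the 1 gene of the 19 with an unadjusted p under 0.05, beside 1.05% of all genes. Nkg7, a membrane protein of cytotoxic granules, was at 10.1, 16.7 and 13.5 FPKM in intact nodes and at 14.5, 15.9 and 17.5 in MHCII-KO nodes.
Of 22 B cell genes, 17 were below 0 (median -0.13), beside 67.8% of all genes, and 0 passed. Pax5, the B lineage factor, was at 38.3, 47.7 and 103 FPKM in intact nodes and at 41.1, 34.2 and 34.3 in MHCII-KO nodes, and Ebf1, another B lineage factor, at 31.0, 32.5 and 49.1 and at 28.8, 31.4 and 27.2. For both, intact replicate 3 was the highest library.
Of 15 germinal center and plasma cell genes, 10 were above 0 (median 0.11), where 67.8% of all genes were below 0. Xbp1, the plasma cell factor, was at 83.6, 46.3 and 74.9 FPKM in intact nodes and at 60.5, 58.0 and 164 in MHCII-KO nodes, with MHCII-KO replicate 3 far above the rest. Fkbp11, a chaperone of secretory cells, had a log2 fold change of 0.59.
Immunoglobulin and T cell receptor constant genes are not classed as protein-coding and were tested among 16587 genes of all types, in which 0.0482% passed, 0.0121% as higher and 0.0362% as lower. Of 12 tested, 8 were above 0 and 0 passed. Ighg1, the IgG1 heavy chain gene, was at 4.91, 48.7 and 107 FPKM in intact nodes and at 288, 169 and 415 in MHCII-KO nodes, with WT at 203, 10.8 and 42.1. The NrasQ61K groups did not overlap, and WT replicate 1 reached the MHCII-KO range. The log2 fold change was 3.11 (95% interval 0.28 to 5.95, unadjusted p = 0.0348 and adjusted p = 1 from limma), and it was the 1 gene of the 12 with an unadjusted p under 0.05, beside 1.52% of the genes of all types. Without intact replicate 1, the lowest library, the log2 fold change was 1.90. It was 5.57 with weights for the libraries, which rest largely on intact replicate 1 and on MHCII-KO replicate 3, the highest library. Igkc, the kappa light chain gene, was at 10600, 947 and 9660 FPKM in intact nodes and at 6660, 2560 and 20400 in MHCII-KO nodes, so that the libraries within a group differed more than the groups. The T cell receptor gene Trac had a log2 fold change of -0.20.

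Myeloid genes showed small differences of both signs. Of 21 macrophage and monocyte genes, 16 were above 0 (median 0.10), where 67.8% of all genes were below 0. Among the 16 were the complement gene C1qb at 0.28 and the coreceptor gene Cd14 at 0.23 on the log2 scale. Cd5l, a secreted macrophage protein, was at 34.4, 13.4 and 13.4 FPKM in intact nodes and at 14.6, 19.5 and 68.5 in MHCII-KO nodes, with MHCII-KO replicate 3 the highest. Of 24 genes of lipid-laden macrophages and melanophages, which take up lipid and pigment, 19 were below 0 (median -0.10), beside 67.8% of all genes. Plin2, a lipid droplet coat protein, was at 76.2, 39.2 and 76.8 FPKM in intact nodes and at 43.1, 38.6 and 56.8 in MHCII-KO nodes, and Mmp12, the macrophage elastase gene, at 18.0, 8.66 and 17.7 and at 10.1, 9.998 and 13.3. In both genes intact replicate 2 was lower than the other 2 intact libraries and made the groups overlap. Slc11a1, a metal transporter of the phagosome, had a log2 fold change of -0.25.
Dendritic cells, which present antigen on class II, were followed by 2 lists. Of 19 lineage genes, 14 were below 0 (median -0.15), and of 20 genes of mature cells, 13 were (median -0.07). These counts stand beside 67.8% of all genes below 0, and 0 passed in either list. Ccl17, a chemokine of migratory dendritic cells, was at 0.642, 0.379 and 1.02 FPKM in intact nodes and at 0.658, 0 and 0.172 in MHCII-KO nodes, both below WT at 5.22 to 7.08. Cd209a, a lectin of type 2 dendritic cells, had a log2 fold change of -0.49 and Xcr1, the receptor of cross-presenting cells, one of -0.30, both with overlapping libraries. Of 19 neutrophil and mast cell genes, 7 were above 0 and 12 below (median -0.02).

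Interferon response genes are read beside class II because interferon gamma induces it. Of 32 tested, 23 were above 0, with a median of 0.09, where 67.8% of all genes were below 0. Isg15 was the 1 gene of the list whose libraries were higher without overlap, beside 0.555% of all genes. Ifitm3, a membrane protein that blocks virus entry, was at 28.1, 52.4 and 31.0 FPKM in intact nodes and at 43.8, 53.8 and 48.4 in MHCII-KO nodes. MHC class I presentation, which loads peptides from the cytosol, had 14 of 20 genes below 0 (median -0.10), beside 67.8% of all genes. Tap2, a subunit of the peptide transporter that lies in the class II region, was at 20.8, 86.5 and 77.1 FPKM in intact nodes and at 28.9, 61.6 and 37.0 in MHCII-KO nodes, with WT at 25.2 to 27.0, so that the difference between NrasQ61K libraries of 1 group was larger than that between the groups.
Of 25 senescence and secretory genes, 15 were above 0 (median 0.07), where 67.8% of all genes were below 0. Cdkn2a was the 1 gene of the 25 with an unadjusted p under 0.05, beside 1.05% of all genes. Il1b, an inflammatory cytokine gene also made by senescent cells, was at 3.70, 0.56 and 1.44 FPKM in intact nodes, at 2.38, 2.43 and 4.94 in MHCII-KO nodes and at 2.33 to 4.84 in WT nodes. The groups overlapped through intact replicate 1, and the log2 fold change was 0.65. Of 13 genes of RAS-ERK feedback, 10 were below 0 (median -0.07), beside 67.8% of all genes. Etv5, a transcription factor induced by ERK, was at 3.80, 4.96 and 4.75 FPKM in intact nodes and at 2.44, 2.47 and 2.51 in MHCII-KO nodes. The 3 MHCII-KO values differed by less than 0.1 FPKM from each other and lay below all WT values, 6.44, 3.27 and 6.61. Its log2 fold change was -0.66 (standard error 0.24, p = 0.0194 from limma, exact permutation p = 0.1).

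In the structural cells of the node, 13 of 23 stromal and homeostatic chemokine genes were below 0 (median -0.03) and 10 of 17 blood and lymphatic vessel genes were above 0 (median 0.03). Madcam1, the addressin of high endothelial venules, was at 1.80, 1.80 and 2.51 FPKM in intact nodes and at 1.33, 0.881 and 1.36 in MHCII-KO nodes (log2 fold change -0.47, p = 0.0477 from limma, exact permutation p = 0.1). Col6a1, a collagen VI chain, was at 17.8, 20.4 and 16.7 FPKM and at 12.1, 12.9 and 11.9. Both had lower libraries without overlap in MHCII-KO nodes, 2 of the 23 stromal genes beside 2.87% of all genes. So did Vwf, the endothelial von Willebrand factor gene, at -0.24 on the log2 scale, 1 of the 17 vessel genes beside the same share. Glycam1, a ligand of L-selectin made by high endothelium, was at 262, 50.7 and 524 FPKM and at 272, 69.3 and 192, with replicate 2 the lowest of each group. Of 8 smooth muscle and pericyte genes, 6 were below 0, and of 17 adipocyte genes, 10 were above 0.
Lists that report carried tissue, blood and handling were read with the muscle markers given above. Of the epidermis, mammary gland and skeletal muscle list 3 genes of 23 passed the filter, among them Tnnt3, a troponin of fast muscle, at 1.60, 0.851 and 1.44 FPKM in intact nodes and at 5.69, 1.41 and 1.497 in MHCII-KO nodes. The summed FPKM of this list was 6.34 to 7.98 in the intact and 6.51 to 30 in the MHCII-KO libraries. Of 3 red cell genes tested, Hba-a1, an alpha globin gene, was at 24.8, 23.4 and 19.7 FPKM and at 14.2, 25.1 and 82.0, with MHCII-KO replicate 3 the highest. Of 20 handling and stress genes, 14 were above 0 (median 0.14). The early response genes Egr2 and Ier3 went in opposite directions, with log2 fold changes of -0.65 and 0.55. Of 35 ribosomal protein genes, 21 were below 0 (median -0.03), and of 31 nuclear-encoded genes of the respiratory chain, 23 were (median -0.14). Of all genes, 67.8% were below 0. In each of these lists 0 genes passed the test.

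**Figure D5:**
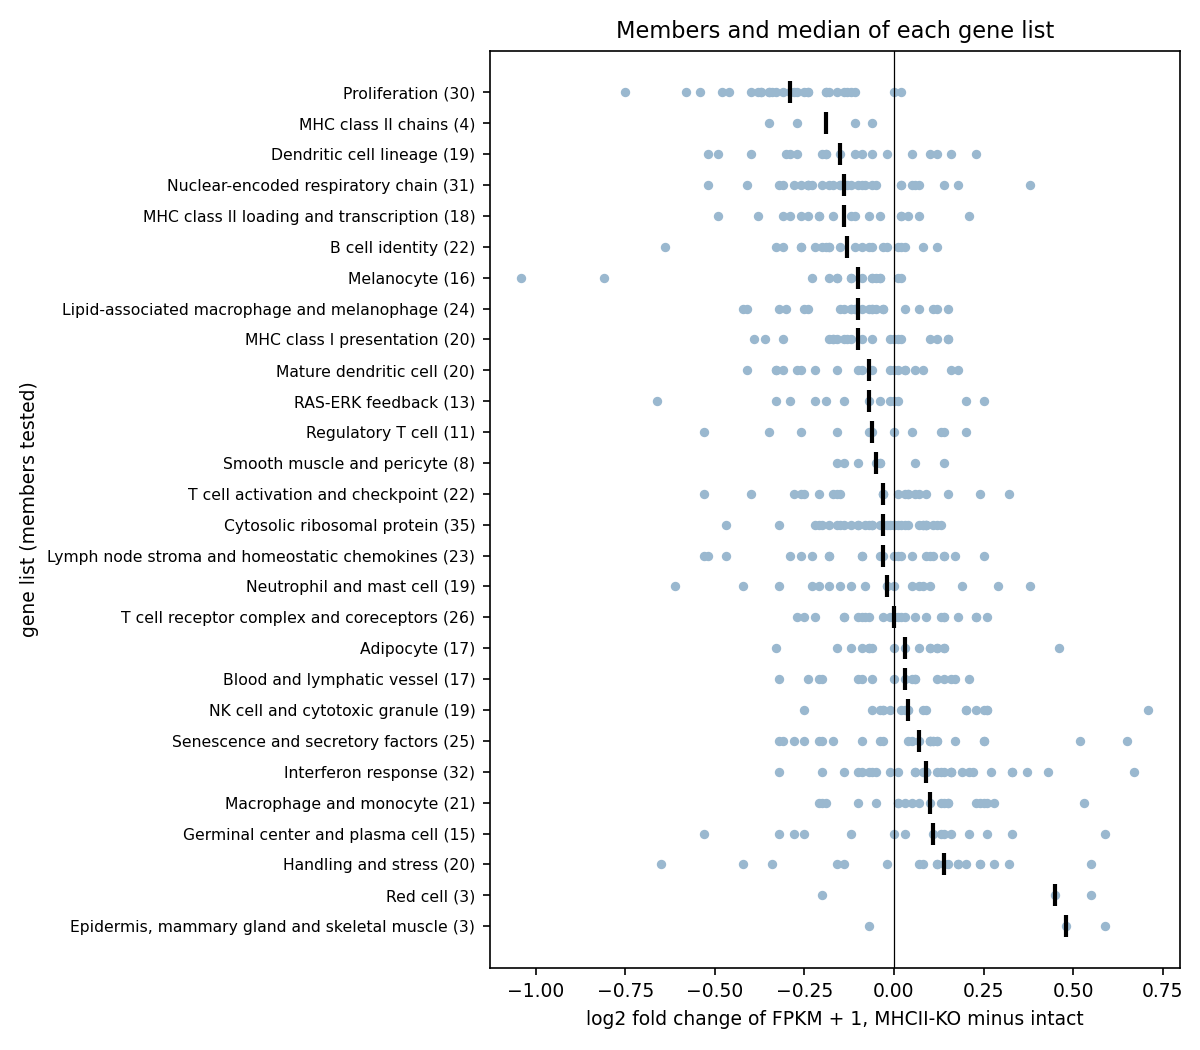
Log2 fold change of FPKM + 1, MHCII-KO minus intact, for every gene tested (pale points) in 28 gene lists, with the median of each list as a black bar and the number of genes tested in brackets. Medians lie between -0.29 for proliferation and 0.48 for the list of epidermis, mammary gland and skeletal muscle, which rests on 3 genes; 0 of the genes shown passed the test.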

How the data were processed

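The deposited table holds FPKM values that the authors made with Cufflinks, and the submitters' processing notes name TopHat, Cufflinks and Cuffdiff with build mm10; their versions, the annotation and read filters are not given in the sources. All libraries shared 1 flow cell per the labels. FPKM hold no read counts, so the relative depth of a library was the commonest ratio of its low FPKM to those of WT replicate 1, over genes with 1 transcript and 1 exon. Of 37819 entries, 18 with several values were left out, and 32802 of the rest matched a GENCODE M21 gene type.
Protein-coding genes that reached 1 FPKM in 3 or more of 9 libraries were fitted as log2(FPKM + 1) with limma 3.58.1 (R 4.3.3), using group means and a mean-variance trend. The contrast was MHCII-KO minus intact, called where p after Benjamini-Hochberg adjustment was 0.05 or less. A pseudocount of 1 understates the changes of low genes. The labels do not tie libraries to animals, and p-values cover the spread between samples alone, which may be technical. Single values were compared by a two-sided exact permutation test over 20 splits. The fit was tested on simulated data with independent noise for each gene and library. Those data lack the variation that many genes share within a library here.
Members and lists were chosen with earlier results of these data known. Named genes were the class II genes and 9 fixed genes, up to 15 per direction of smallest p without overlap and without predicted names, and up to 3 of smallest p plus the highest in each of 29 lists. A few genes that the rule names are not reported here. Promoters came from RefSeq (GRCm38.p6). Python 3.11.15 and matplotlib 3.10.9 drew the plots.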

Additional observations from a re-analysis of the deposited data

Results flagged for a closer look

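In the fit over all 16587 genes of any type, which the protein-coding comparison does not use, 8 short features that are not protein-coding passed the test. Of these, 6 were lower in MHCII-KO. AL824704.1 was at 811, 534 and 467 FPKM in the intact libraries, and Traj52, which is 66 nt long and encodes a joining segment of the T cell receptor, at 598, 390 and 224. Mir5136, a microRNA gene that is 76 nt long, was at 374, 247 and 139. A 5S_rRNA entry was at 158, 67.9 and 186 FPKM in the intact libraries, AC151572.1 at 115, 52.8 and 23.3 and AC133509.2 at 35.9, 9.92 and 8.79. All 6 were listed at 0 in every MHCII-KO and every WT library. The other 2 were higher in MHCII-KO. A U6 entry was at 48.5, 46.3 and 38.7 FPKM and AC134453.1 at 194, 368 and 261 FPKM in the MHCII-KO libraries, and both were listed at 0 in every intact and every WT library. Another U6 entry had the same FPKM as the first in the MHCII-KO libraries and was at 57.66, 158.5 and 58.33 in the intact libraries (adjusted p = 1 from limma), so U6 reads were present in both groups and the value of a single copy is uncertain. An exact 0 in a table of FPKM can be a failed estimate. Each of the 8 features met the filter of 1 FPKM in 3 libraries only through the group in which it was high. Their passing is therefore no support for a difference between the groups.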

How the results depend on the processing

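The count of called genes was 0 in the fit as reported and in 22 of 25 alternatives; it was 6 (2 higher, 4 lower) with weights for the libraries and ranged from 0 to 1 when any 1 library was left out, the 1 being Gm20418 without intact replicate 2. With all gene types the count was 8 (2 higher, 6 lower), 0 of them protein-coding. Each of the 8 met the filter only through the group in which it was high. The counts of called class II genes, of called genes in the other lists and of called constant genes were 0 throughout. The fit as reported did not pair the groups by replicate number, and whether these numbers mark pairs is not known. The deviations of same-numbered libraries correlated at 0.47, 0.65 and 0.06, and those of differently numbered libraries at -0.62 to 0.41. With a replicate block 0 genes passed. At an unadjusted p under 0.05 there were then 34 higher and 345 lower genes over 6 libraries and 29 and 290 over 9. Of 94 genes recomputed, 70 kept their sign in every alternative run on them. Values that turned sign were, on the log2 scale, Ctss 0.0575, Gpnmb 0.0319, H2-Aa 0.0359 and March1 0.0228 with equal sums of FPKM; Ctss 0.049, Gpnmb 0.0234, H2-Aa 0.0274 and March1 0.0139 with median-ratio scaling; Gpnmb 0.167, H2-DMa 0.0655 and March1 0.0383 with quantile normalization; Ctsl -0.0764 and Nfya -0.0535 with the identifier run as a term; Ctsl -0.311, Foxp3 0.138, H2-Ab1 0.151, H2-DMa 0.0683, H2-Eb1 0.00629, Nfya -0.206, Rfx5 0.139, Tap2 0.57 and Trac 0.196 with library weights; and Ctsl -0.261, H2-Ab1 0.264, Nfya -0.208 and Nras -0.172 without replicate 2 of both groups. Leaving out 1 library at a time gave -0.182 to 0.282 for Cd3e, -0.675 to 0.142 for Cd4, -0.119 to 0.967 for Cd5l, -0.0945 to 0.132 for Cd74, -0.339 to 0.248 for Ctsl, -0.233 to 0.113 for Ctss, -0.205 to 0.0364 for Foxp3, -1.26 to 0.408 for Glycam1, -0.349 to 0.187 for Gpnmb, -0.498 to 0.271 for H2-Aa, -0.611 to 0.0469 for H2-Ab1, -0.292 to 0.181 for H2-DMa, -0.246 to 0.105 for H2-Eb1, -0.24 to 0.984 for Hba-a1, -0.523 to 1.34 for Igkc, -0.599 to 0.238 for March1, -0.374 to 0.27 for Nfya, -0.382 to 0.061 for Nfyb, -0.337 to 0.282 for Nras, -0.0642 to 0.208 for Rfxap, -0.997 to 0.00632 for Tap2, -0.358 to 0.099 for Trac and -0.158 to 0.585 for Xbp1. The number of genes at an unadjusted p under 0.05 was 27 higher and 576 lower without intact replicate 2, 12 and 441 without intact replicate 1, 45 and 52 without intact replicate 3, and 871 and 852 with library weights; the causes were not tested. Depth, which is known only relative to WT replicate 1, and 3 libraries per group limit what differences could be seen.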
